A study of Mus musculus with 2 samples.

Results

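The NRF2, glutathione and antioxidant genes described here are 33 genes, found by their symbols among the 26078 features of 2 single-cell count matrices. They were divided by role into a glutathione branch of 13 genes, a thioredoxin branch of 9 genes, an NADPH branch of 5 genes and 6 other genes. The matrices come from liver macrophage preparations of C57BL/6J mice that were 7 to 10 weeks old, with 1 mouse and 1 library per group. The saline mouse was the control. The Ter119 mouse received Ter119, an antibody that recognises mouse erythroid cells, first as 35 ug under the skin and then as 10 ug on each of 10 days. Both livers were collected 24 after the final injection, and the labels do not state the unit of that time. The cells came from a digested non-parenchymal fraction, were pulled down with beads against F4/80 and CD11b, carried hashtag antibodies, were mixed, and entered 10x 3' v3.1 chemistry aimed at 10000 cells.

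NRF2, encoded by Nfe2l2, is a transcription factor that KEAP1 holds in the cytoplasm and marks for degradation. Electrophiles and oxidants modify KEAP1, and NRF2 then reaches antioxidant response elements in its target genes together with small MAF proteins, where BACH1 competes with it until heme removes BACH1. Its targets supply glutathione, thioredoxin and the NADPH that recharges both. Kupffer cells, which reside in the liver sinusoids, take up aged and damaged red cells, and Hmox1, which encodes the enzyme that opens the heme ring, is regulated by the same pair of factors.

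Promoter windows are shown for 6 members because they stood higher in the Kupffer cells of the Ter119 mouse and because 5 of them hold the core of the antioxidant response element. RefSeq windows on GRCm38.p6, 300 bases long, were found for 29 of the 33 members, in 38 windows since some genes have several starts. Gclc, Gsr, Abcc1 and Prdx6 had no entry. The core was searched as TGACNNNGC on both strands. It was present in 9 of 38 member windows (23.7%) and in 4071 of all 32851 windows of that length (12.4%). The AP-1 consensus TGAGTCA, which can overlap the core, was present in 5 of 38 member windows (13.2%) and in 5.2% of all windows. The matches lay in windows of Gclm, Mgst1, Srxn1, Txnrd1, Prdx1, Me1, Pgd, G6pdx and Sod1, each with 1 match. Other windows of Mgst1, Txnrd1, Me1 and Pgd held 0 matches. So did those of Esd, Cat, Slc7a11 and Nqo1, which also stood higher in Ter119 Kupffer cells and are not shown. A match is a string of letters and was not tested as a binding site.

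Below are the 250 bases before the start for Gclm (chr3:122245307-122245556, plus strand), Mgst1 (chr6:138140277-138140526, plus strand), Prdx1 (chr4:116685349-116685598, plus strand), Txnrd1 (chr10:82858956-82859205, plus strand) and Gstm1 (chr3:108017974-108018223, minus strand). For Me1 (chr9:86695912-86696164, minus strand) 253 bases are given, since its match runs across the start. Each is read 5′ to 3′ on the strand of its gene, and capitals mark the match to TGACNNNGC or its reverse complement. Gstm1 is the member with the largest ratio in Kupffer cells and has no match in this window.
Gclm: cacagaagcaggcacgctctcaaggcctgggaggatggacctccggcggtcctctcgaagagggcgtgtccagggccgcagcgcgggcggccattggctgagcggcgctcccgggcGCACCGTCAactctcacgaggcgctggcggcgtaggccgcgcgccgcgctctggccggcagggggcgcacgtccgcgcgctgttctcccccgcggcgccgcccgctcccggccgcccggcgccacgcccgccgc
Mgst1: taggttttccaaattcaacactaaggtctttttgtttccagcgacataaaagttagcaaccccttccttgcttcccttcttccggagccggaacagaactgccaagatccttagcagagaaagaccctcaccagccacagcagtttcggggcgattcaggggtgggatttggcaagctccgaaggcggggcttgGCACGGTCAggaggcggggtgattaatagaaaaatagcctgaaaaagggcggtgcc
Prdx1: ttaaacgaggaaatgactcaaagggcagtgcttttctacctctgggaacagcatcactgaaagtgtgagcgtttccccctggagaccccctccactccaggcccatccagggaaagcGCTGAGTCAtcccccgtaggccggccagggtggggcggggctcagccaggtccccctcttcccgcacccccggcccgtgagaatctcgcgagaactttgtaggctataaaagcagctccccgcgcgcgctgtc
Txnrd1: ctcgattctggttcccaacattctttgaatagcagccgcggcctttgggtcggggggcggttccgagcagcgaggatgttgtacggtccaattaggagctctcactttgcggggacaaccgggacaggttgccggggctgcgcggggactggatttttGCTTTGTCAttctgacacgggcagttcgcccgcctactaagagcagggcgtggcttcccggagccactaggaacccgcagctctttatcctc
Me1: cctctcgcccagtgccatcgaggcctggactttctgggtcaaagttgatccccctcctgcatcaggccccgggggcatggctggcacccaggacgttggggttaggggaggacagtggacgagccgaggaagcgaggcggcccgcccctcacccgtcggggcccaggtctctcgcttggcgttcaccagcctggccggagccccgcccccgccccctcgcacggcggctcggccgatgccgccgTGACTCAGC
Gstm1: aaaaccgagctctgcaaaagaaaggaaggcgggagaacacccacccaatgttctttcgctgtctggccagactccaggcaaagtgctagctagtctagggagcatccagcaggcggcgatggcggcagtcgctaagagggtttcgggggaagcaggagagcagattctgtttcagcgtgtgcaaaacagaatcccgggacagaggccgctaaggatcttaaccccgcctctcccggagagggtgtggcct
The match began 134 bases before the RefSeq start in Gclm, 56 before it in Mgst1 and 133 before it in Prdx1. In this Txnrd1 window the match began 92 bases before that start, and in Me1 6 before it. GENCODE, used for the gene positions, has Mgst1 begin at 138140316, Txnrd1 at 82833951 and Me1 at 86695953. The matches of these genes therefore lie inside the GENCODE gene. In Prdx1 and Me1 the capitals also contain the AP-1 consensus or its reverse complement.

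The saline matrix held 18354 barcodes and 97181787 UMIs (unique molecule counts), and the Ter119 matrix held 25760 barcodes and 61892074 UMIs. After filters 11572 saline cells with a median of 6239 UMIs and 13846 Ter119 cells with a median of 2803 UMIs remained, and 38 barcode sequences among them occurred in both samples. Cells were assigned to a type by summed marker counts. Levels are given as CPM, the UMIs of a gene summed over the cells of a type and scaled to the same total in each sum, and 3' counts give no comparison of levels between different genes. The Kupffer gate took 9702 cells of the saline mouse, at a median depth of 6708 UMIs, and 6074 of the Ter119 mouse, at 3480 UMIs, and 32 and 14 of these carried a barcode found in the other sample. When the cells of both samples were clustered together, the clusters named Kupffer from their markers were 4 of saline cells and 3 of Ter119 cells with 0 in common, so the comparison is between cells that lie in different clusters. All 14 Kupffer markers were present in both samples in the gated cells, with Clec4f at 5297 CPM in saline against 1009 CPM in Ter119, Cd163 at 831 and 31.6 CPM, and Marco at 844 and 4318 CPM. In the Kupffer-gated cells hemoglobin and other erythroid markers were at 0.547 per 10000 UMIs in saline and 183.1 in Ter119, hepatocyte markers at 35.8 and 9.35, and mitochondrial UMIs at 7.26% and 5.63%. The part of depth, hemoglobin, hepatocyte RNA and mitochondrial share in the ratios below was not tested. With 1 mouse per group, effects of the treatment, the animal and the library cannot be told apart, and no test between groups was made. All intervals are 95% counting intervals and do not include variation between mice, cells or amplification.

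In Kupffer-gated cells the antioxidant genes were on the whole higher in the Ter119 mouse. A level of 20 CPM or more in either sample was reached by 29 members, and 7 of them stood 2-fold or more above saline (Gclm, Mgst1, Gstm1, Esd, Prdx1, Me1 and Cat) and 0 stood 2-fold or more below it. Among all 6451 genes at that level, 3.78% stood that far above saline and 8.7% that far below. The members were chosen with earlier results of these data known, so the comparison with all genes is a description only. The median log2 ratio of Ter119 over saline was 0.67 for the 29 members and -0.21 for all genes. It was 0.79 in the glutathione branch (11 genes at that level), 0.63 in the thioredoxin branch (9), 0.67 in the NADPH branch (5) and 0.42 in the other genes (4). Slc7a11 and Nqo1 were also over 2-fold higher but stayed below 20 CPM, as did Mgst3 and Osgin1. Over all 33 members, with no limit on level, 9 were at least 2-fold higher, Slc7a11 and Nqo1 among them. Another 15 were between 1.2-fold and 2-fold higher. Of the rest, 7 lay within 1.2-fold of equality and 2, Gpx1 and Osgin1, were more than 1.2-fold lower. Without that limit the background was wider, with 16.5% of 17875 genes past 2-fold above saline and 14.9% past it below. Shares for the 1.2-fold classes were not computed for all genes, so these counts are a description only. The choice of scaling bears on these values. TMM factors moved the median of all genes to 0.01 and the count of members past 2-fold to 13, with 5.52% of all genes higher and 5.5% lower. Median-of-ratios factors moved them to 0.04 and 14, with 5.8% higher and 5.29% lower.

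**Figure D1:**
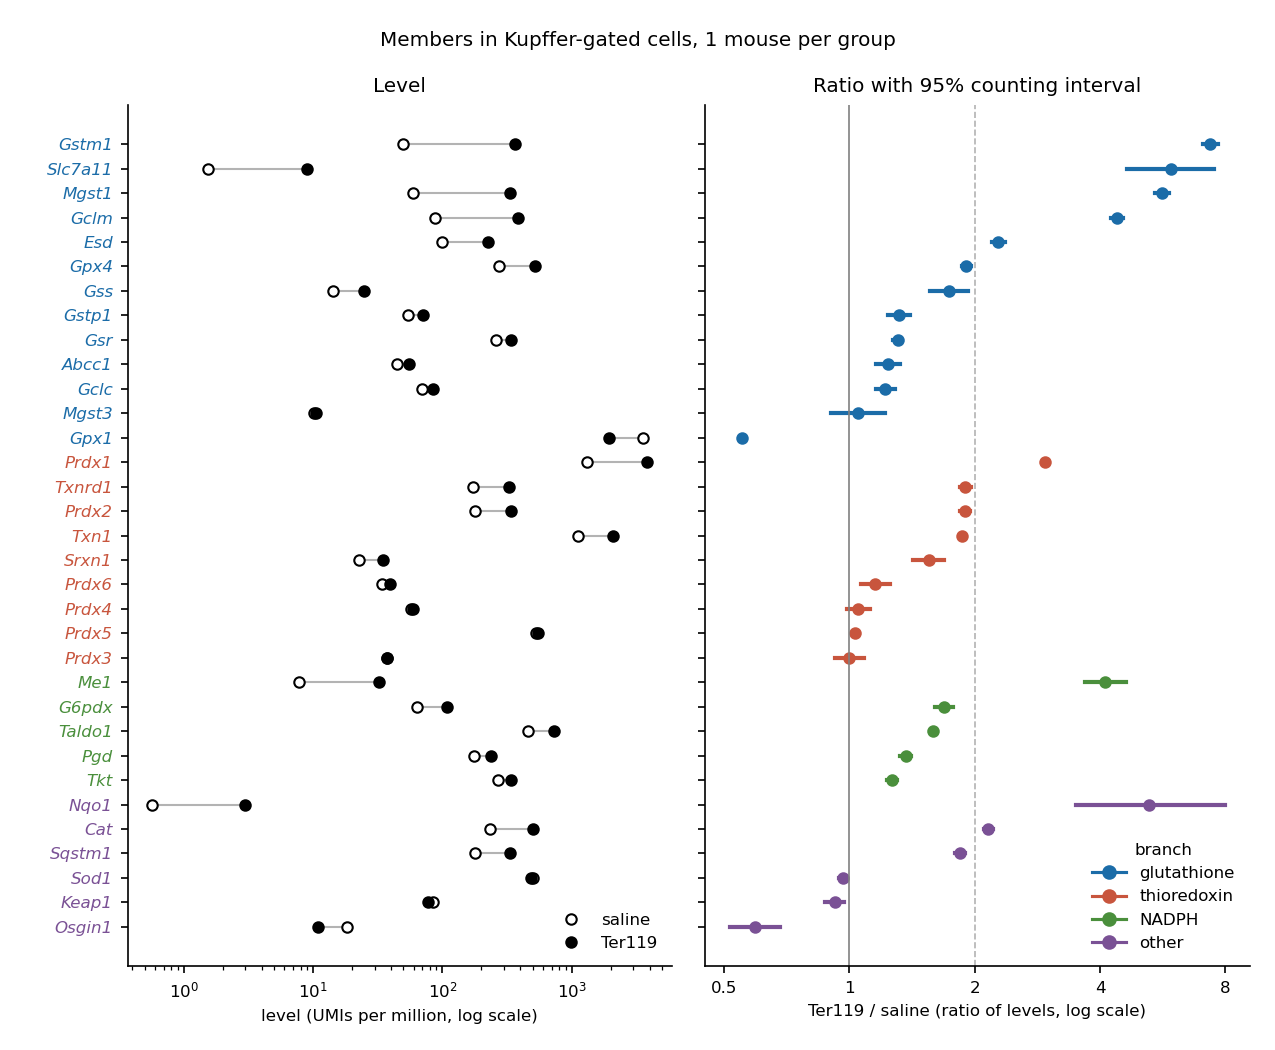
Left, level of each member in Kupffer-gated cells (CPM, log axis) in saline (open) and Ter119 (filled); right, ratio of Ter119 over saline (log axis) with the 95% counting interval, coloured by branch, with lines at 1 and at 2. Gstm1, Slc7a11, Mgst1, Nqo1, Gclm and Me1 lie above 4. Gpx1 and Osgin1 lie furthest to the left of 1, and Keap1 and Sod1 lie slightly to the left of it.

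The genes that make glutathione were unevenly higher. Gclm encodes the modifier subunit of glutamate-cysteine ligase, which catalyses the first and limiting step of glutathione synthesis (chromosome 3, 122245557 to 122270732, GRCm38). Its level was 86.9 CPM in saline against 381.2 CPM in Ter119 (ratio 4.39, interval 4.24 to 4.53). Gclc, the catalytic subunit of the same enzyme, was at 69.3 and 84.5 CPM, a ratio of 1.22 (1.16 to 1.29). The counting intervals of the 2 subunits did not overlap, with the modifier far above the catalytic subunit. Gss, which adds glycine in the second step, was at 14.3 and 24.7 CPM, a ratio of 1.73 (1.56 to 1.92).

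Slc7a11, the cystine transporter that brings in the cysteine for glutathione, was rare in Kupffer-gated cells. It had 110 UMIs (1.53 CPM) in saline and 196 UMIs (9.04 CPM) in Ter119, a ratio of 5.91 (4.65 to 7.53). In saline these UMIs lay in 34 cells (0.350%) and in Ter119 in 151 cells (2.49%). With Kupffer cells taken from clusters in place of the gate the log2 ratio moved from 2.56 to 5.47, and with cells thinned to 1000 UMIs it was 1.83. Saline neutrophils carried Slc7a11 at 327.1 CPM, and the part of neutrophil RNA in the saline value of Kupffer-gated cells was not tested. Gsr, the reductase that returns oxidised glutathione to its reduced form with NADPH, was at 261 CPM in saline against 340.5 CPM in Ter119 (ratio 1.30, interval 1.27 to 1.34).

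Among the enzymes that use glutathione, the largest ratios were those of 2 transferases. Gstm1, a cytosolic transferase of the mu class (chromosome 3, 108012255 to 108017973), was at 49.3 CPM in saline against 363.2 CPM in Ter119 (ratio 7.37, interval 7.08 to 7.67). Mgst1, a membrane-bound transferase with peroxidase activity (chromosome 6, 138140316 to 138156755), was at 59.5 and 335.5 CPM, a ratio of 5.63 (5.42 to 5.85). Their relatives did not follow to that extent. Mgst3 was at 10.1 and 10.6 CPM, a ratio of 1.05 (0.902 to 1.22). Gstp1, of the pi class, was at 53.9 and 70.9 CPM, a ratio of 1.32 (1.24 to 1.40). Its near-identical neighbour Gstp2 was at 27.9 and 5.77 CPM, and the sources used here do not give how reads shared by the 2 genes were assigned. Esd, an esterase that releases glutathione from S-formylglutathione, was at 99.8 and 227.2 CPM, a ratio of 2.28 (2.20 to 2.36).

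Gpx1 and Gpx4, both glutathione peroxidases, stood on opposite sides of equality. Gpx1, the abundant cytosolic peroxidase for hydrogen peroxide, was at 3553 CPM in saline against 1958 CPM in Ter119 (ratio 0.551, interval 0.545 to 0.557). Gpx4, which reduces lipid peroxides within membranes, was at 274.6 and 524.5 CPM, a ratio of 1.91 (1.87 to 1.96). Gpx1 was lower under each of the 12 alternative settings tried for the members, with log2 ratios from -0.96 to -0.61. Abcc1, a pump that exports glutathione conjugates, was at 44.4 and 55.0 CPM, a ratio of 1.24 (1.16 to 1.32).

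In the thioredoxin branch 1 peroxiredoxin stood apart. Prdx1, a cytosolic enzyme that breaks down hydrogen peroxide and is recharged by thioredoxin (chromosome 4, 116685544 to 116700822), was at 1304 CPM in saline against 3848 CPM in Ter119 (ratio 2.95, interval 2.92 to 2.98). Prdx2, its cytosolic relative and a major protein of red cells, was at 179.1 and 339 CPM, a ratio of 1.89 (1.84 to 1.95). The 758 erythroid-gated cells of the Ter119 mouse had Prdx2 at 327.6 CPM, close to the level in its Kupffer-gated cells. The other peroxiredoxins lay near equality. The ratio was 0.9995 (0.923 to 1.08) for mitochondrial Prdx3, 1.05 (0.986 to 1.12) for Prdx4 of the endoplasmic reticulum, 1.03 (1.01 to 1.06) for Prdx5 and 1.16 (1.07 to 1.25) for Prdx6, which draws on glutathione. Prdx3, Prdx4 and Prdx5 changed sign under at least 1 alternative setting.

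The carriers that recharge the peroxiredoxins were nearly 2-fold higher. Txn1, the cytosolic thioredoxin, was at 1119 CPM in saline against 2092 CPM in Ter119 (ratio 1.87, interval 1.85 to 1.89). Txnrd1, the selenoprotein that reduces it with NADPH, was at 172.9 and 328.4 CPM, a ratio of 1.90 (1.84 to 1.96). Srxn1, which repairs over-oxidised peroxiredoxins, was at 22.6 and 35.0 CPM, a ratio of 1.55 (1.42 to 1.69).

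In the NADPH branch Me1, the cytosolic malic enzyme, was at 7.81 CPM in saline against 32.2 CPM in Ter119 (ratio 4.12, interval 3.68 to 4.61). The 2 enzymes of the oxidative pentose phosphate pathway that yield NADPH had smaller ratios. G6pdx, which opens the pathway, was at 64.1 and 108.3 CPM, a ratio of 1.69 (1.61 to 1.77), and Pgd was at 174.3 and 238 CPM, a ratio of 1.36 (1.32 to 1.41). Of the enzymes that return pentoses to glycolysis, Taldo1 was at 459.4 and 731.2 CPM, a ratio of 1.59 (1.56 to 1.62). Tkt was at 268.9 and 339.9 CPM, a ratio of 1.264 (1.23 to 1.30). All 5 intervals lay above 1.

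Nqo1, a quinone reductase often used as a readout of NRF2, was close to absent from Kupffer-gated cells. It had 41 UMIs (0.570 CPM) in saline and 65 UMIs (3.00 CPM) in Ter119, a ratio of 5.26 (3.50 to 7.97). Cat, the peroxisomal catalase, was at 232.2 and 500.1 CPM, a ratio of 2.15 (2.10 to 2.21), and was just below 2-fold (log2 ratio 0.997) with Kupffer cells rich in hemoglobin included. Sqstm1, the autophagy receptor p62 that also binds KEAP1, was at 179.6 and 331.2 CPM, a ratio of 1.84 (1.79 to 1.90). Sod1, the cytosolic superoxide dismutase, was at 501.8 and 484 CPM, a ratio of 0.964 (0.944 to 0.986), and Keap1 was at 84.1 and 77.5 CPM, a ratio of 0.921 (0.872 to 0.973). Both of these changed sign under at least 1 alternative setting. Osgin1, a stress-induced inhibitor of growth, was at 18.4 and 10.9 CPM, a ratio of 0.595 (0.516 to 0.683).

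The share of Kupffer-gated cells with a UMI was compared after each cell was thinned to 1000 UMIs. For Gstm1 it was 4.88% (4.46 to 5.32) in saline and 29.1% (28.0 to 30.3) in Ter119, and 27.5% and 60.5% without thinning. For Mgst1 it was 6.21% and 27.2% thinned and 29.6% and 60.5% unthinned. For Gclm it was 8.25% and 30.6% thinned and 40.8% and 63.5% unthinned. At equal depth, each of these genes was seen in a larger share of the Ter119 cells. Prdx1 was seen in 71.2% and 94.5% of thinned cells, and Gpx1 in 94.1% and 82.7%. T or NK cells, which do not make Kupffer markers, gave thinned shares in Ter119 of 4.46% for Gstm1, 8.93% for Mgst1 and 12.5% for Gclm (112 cells, median 1642 UMIs).

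**Figure D2:**
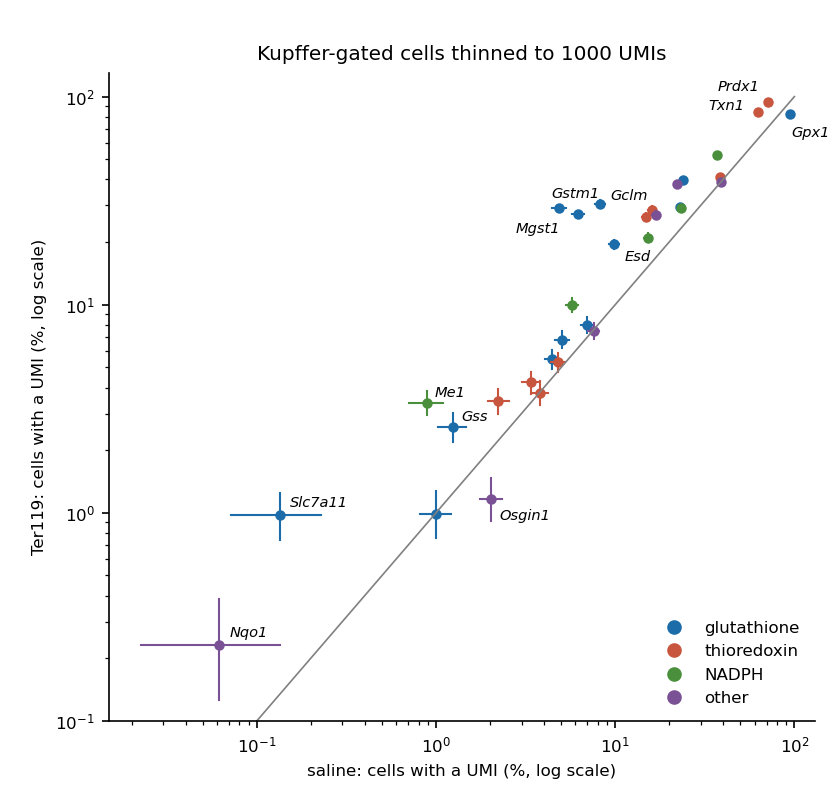
Share of Kupffer-gated cells with at least 1 UMI of each member after thinning every cell to 1000 UMIs, saline on the horizontal and Ter119 on the vertical axis (percent, both log axes); bars are exact binomial 95% intervals and the line marks equality. Gstm1, Mgst1 and Gclm lie well above the line, and Gpx1 and Osgin1 lie below it.

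Nfe2l2 and Bach1, the genes of the competing factors, stood lower in the Ter119 mouse. Nfe2l2 was at 152.2 CPM in saline against 102.2 CPM in Ter119 (ratio 0.671, interval 0.641 to 0.703), and Bach1 was at 77.7 and 68.0 CPM, a ratio of 0.875 (0.825 to 0.927). Of the 11 listed regulators, 7 reached 20 CPM, and 0 of them passed 2-fold in either direction. Nfe2l1, a relative of NRF2, had a ratio of 1.23 (1.17 to 1.29) and the MAF partner Mafg one of 0.845 (0.8004 to 0.892). The distance of Bach1 and Mafg from equality is about the size of the shift of all genes between the scalings given above. These are messenger levels, and NRF2 is controlled mainly at the protein.

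The rest of each pathway gave a mixed picture in Kupffer-gated cells. Of 38 other glutathione genes, 16 reached 20 CPM, of which 2 passed 2-fold upward (Gpx3, ratio 3.67, and Ggct, ratio 2.21, both named after their values were seen) and 3 downward. Those 3 were the transferases Gsta3 (25.4 and 3.55 CPM, ratio 0.140) and Gstp2 (ratio 0.207) and the 5-oxoprolinase Oplah (31.5 and 7.24 CPM, ratio 0.230). Hepatocyte markers were lower in Ter119 beside them, at 35.8 and 9.35 per 10000 UMIs for the list and at 1575 and 246.6 CPM for Alb, and their part in these ratios was not tested. Of 14 other thioredoxin genes, 9 reached 20 CPM, with 0 past 2-fold upward and 2 downward. Txnip, which binds and inhibits thioredoxin, was at 571.8 CPM in saline against 111.0 CPM in Ter119 (ratio 0.194, interval 0.186 to 0.202). Sesn1, a stress-induced sestrin, had a ratio of 0.471 and Txndc5, of the endoplasmic reticulum, one of 0.595.

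Of 10 other NADPH genes, 9 reached 20 CPM, with 0 past 2-fold upward and 1 downward. This was Nadk, the kinase that makes NADP, at 141.9 and 67.6 CPM (ratio 0.476), followed by Nnt (ratio 0.622) and Rpia (ratio 0.619). Of 23 superoxide, quinone and metal genes, 21 reached 20 CPM, with 3 higher and 2 lower. Akr1b8, an aldo-keto reductase, was at 2.06 CPM in saline against 43.2 CPM in Ter119 (ratio 21.0, interval 17.6 to 25.1), above that of every member. The metallothionein Mt1 had a ratio of 2.51 and Blvra, which reduces biliverdin, one of 2.07. Ncf1 and Ncf4, subunits of the NADPH oxidase, had ratios of 0.421 and 0.432, and Blvra and Ncf4 are named after their values were seen. Of 7 heme and iron genes under NRF2, 6 reached 20 CPM and 4 were higher. Hmox1 was at 966 and 6420 CPM (ratio 6.65), the ferritin chain Fth1 at 5690 and 32761 CPM (ratio 5.76) and Ftl1 at 7130 and 19566 CPM (ratio 2.74). The heme transporter Slc48a1, named after its value was seen, had a ratio of 2.67.

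The antioxidant genes, like the ferritin chains Fth1 and Ftl1, followed Hmox1 only weakly within the Ter119 mouse. Its Kupffer-gated cells were ranked by Hmox1 per cell and divided into 4 groups of 1518 or 1519 cells, with Hmox1 at 2628, 5258, 7226 and 10492 CPM from the lowest to the highest quartile. Median depth was 3235, 3585, 3746 and 3392 UMIs. Of 29 members with at least 20 CPM, 0 differed by 2-fold or more between the highest and the lowest quartile in either direction. The background was 0.051% higher and 0.561% lower of 5881 genes, so few genes of any kind passed that fold. The median log2 ratio of the members was 0.09, beside -0.01 for all genes. By branch it was 0.05 for glutathione, 0.09 for thioredoxin, 0.00 for NADPH and 0.23 for the other genes. With Kupffer cells rich in hemoglobin included, a setting chosen after seeing the data, the median of the members was 0.23. The median of all genes was not computed for that setting, so a stronger relation to Hmox1 cannot be read from it.

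Over the 4 quartiles, 8 of the 33 members were higher at each step, 5 were lower at each step and 20 did neither. The share of all genes with such an order was not computed, so these counts are a description only. Srxn1 was at 27.8, 31.5, 37.1 and 44.6 CPM, a ratio of the highest over the lowest quartile of 1.60 (1.29 to 1.99). Txnrd1 was at 255.5, 326, 345.7 and 393 CPM, a ratio of 1.54 (1.44 to 1.65), and Sqstm1 at 268.7, 305.9, 348.3 and 410 CPM, a ratio of 1.53 (1.43 to 1.63). Gclm, at 329.4, 378.2, 402.1 and 422.8 CPM, had a ratio of 1.28 (1.204 to 1.37), and Cat one of 1.24 (1.17 to 1.31). Gclc was at 71.2, 84.2, 82.4 and 102.4 CPM, with a ratio of 1.44 (1.256 to 1.65) but no step up from the second to the third quartile. The cells were ranked by Hmox1 itself, so its own difference between the quartiles is set by the ranking and gives no measure for these ratios.

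Gstm1, Prdx1 and Mgst1, all over 2-fold higher in Ter119 than in saline, differed little over the quartiles. Gstm1 was lower at each step, at 373.8, 365.8, 362.1 and 361 CPM, but its ratio of 0.966 had an interval that includes 1 (0.906 to 1.03). Prdx1 was at 3802, 3703, 3951 and 4039 CPM, a ratio of 1.06 (1.04 to 1.08), and Mgst1 at 306.8, 339.7, 354.9 and 347.1 CPM, a ratio of 1.13 (1.06 to 1.21). Gpx1 was also lower at each step (2138, 1969, 1951 and 1830 CPM, ratio 0.856), as were Prdx5 (ratio 0.871), Gstp1 (ratio 0.818) and Prdx4 (ratio 0.768). The 5 NADPH genes had ratios from 0.954 for Tkt to 1.15 for Me1 and no steady order. The ferritin chains, which are not members, had ratios of 1.08 (1.07 to 1.09) for Fth1 and 1.03 (1.02 to 1.03) for Ftl1. Over the 6074 single cells, the Spearman correlation of the summed members with Hmox1 was 0.04, from -0.04 for Prdx5 to 0.07 for Sqstm1. It was 0.06 for Fth1 and 0.04 for Ftl1. Each cell was thinned to 1000 UMIs for these correlations, which leaves a mean of 14.8 UMIs of all members per cell, and they are given as a description only. Some marker lists moved with the ranking. Cycling markers were at 1.72, 1.43, 0.886 and 0.939 per 10000 UMIs from the lowest to the highest quartile, and monocyte markers at 8.32, 7.35, 7.06 and 6.60. Hemoglobin genes were at 172.1, 199.6, 188.7 and 167 and hepatocyte markers at 9.35, 9.35, 9.34 and 9.35. The part of these cells or their RNA in the values of the members was not tested.

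Saline Kupffer-gated cells ranked in the same way ran from 142.1 to 2631 CPM of Hmox1 over 4 quartiles, so that the highest saline quartile had about the Hmox1 level of the lowest Ter119 quartile. Here 0 of 28 members passed 2-fold in either direction (0.0159% of 6307 genes were higher and 0.0476% lower), and the median log2 ratio was 0.11. In all, 14 members were higher at each step, 5 lower at each step and 14 neither, again with no share of all genes computed. Gclm was at 71.8, 74.2, 85.2 and 120.3 CPM, a ratio of 1.68 (1.56 to 1.80). Abcc1 had a ratio of 1.55, Txnrd1 one of 1.48 and Sqstm1 one of 1.36. The highest saline and the lowest Ter119 quartile had like summed Hmox1 counts and differed in the members. Both were picked by the counted Hmox1 of each cell, so counting error raises it in the first and lowers it in the second. Whether cells of a like Hmox1 level differ was not tested. In the highest saline quartile (2631 CPM of Hmox1) Gclm was at 120.3, Gstm1 at 53.6, Mgst1 at 60.1 and Prdx1 at 1439 CPM. In the lowest Ter119 quartile (2628 CPM of Hmox1) they were at 329.4, 373.8, 306.8 and 3802 CPM. Gpx1 was at 3519 and 2138 CPM in these groups of cells.

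**Figure D3:**
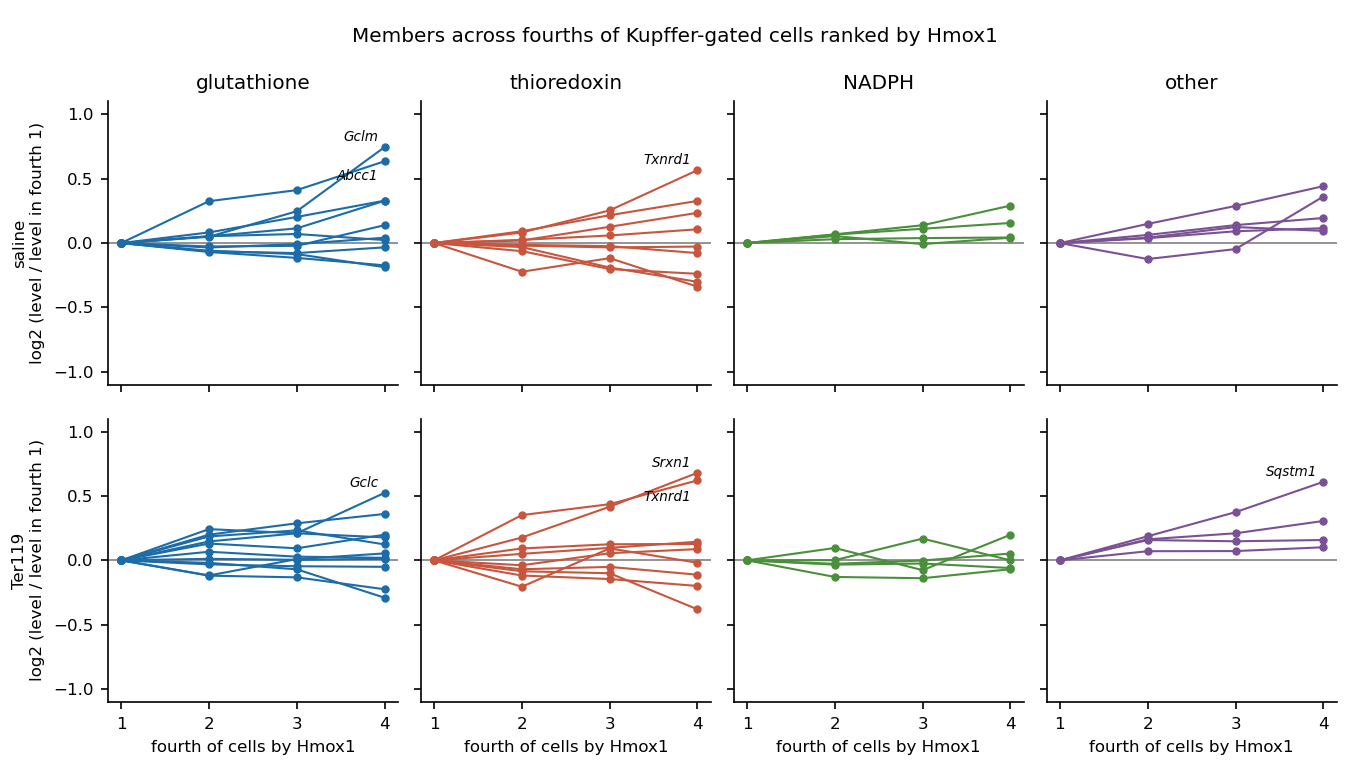
Level of each member with at least 20 CPM in each quartile of Kupffer-gated cells ranked by Hmox1, relative to the lowest quartile (log2), for saline (upper) and Ter119 (lower) and by branch; each line is 1 gene. No line reaches 1, and the lines that pass 0.5 at the highest quartile are named, Gclm, Abcc1 and Txnrd1 in saline and Gclc, Srxn1, Txnrd1 and Sqstm1 in Ter119.

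The other gated cells were few, from 27 saline T or NK cells to 985 Ter119 endothelial cells, and were carried along by a preparation meant for macrophages. Kupffer markers, which lymphocytes do not make, stood in T or NK cells at a median of 6.28% of their Kupffer level in saline and 17.8% in Ter119 (highest 11.5% and 28.7%), and Hmox1 stood there at 45.6 and 1369 CPM, 4.72% and 21.3% of its Kupffer level. Each level in another type is set here against the highest of these marker shares, and also against the highest among markers with at least 20 UMIs in that type, a limit added after seeing the data. The limits differ where a rare marker is highest. In Ter119 this was Cd163 in T or NK cells (28.7% from 2 UMIs, against 21.1% for Marco) and in dendritic cells (45.0% from 4 UMIs, against 18.6% for C1qb), and C6 in neutrophils (27.6% from 10 UMIs, against 19.9% for C1qb). The larger marker shares in Ter119 move with the ratios of these types, and its part in them was not tested. The markers were chosen as Kupffer genes and set the gate, so a gene made in several types may well exceed them. The share of all genes that did so was not computed, so counts of members above the markers are a description only.

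Endothelial cells, which line the liver sinusoids, also had higher levels of the members. Of 30 members at 20 CPM or more, 12 passed 2-fold upward in Ter119 and 0 downward, beside 3.67% and 4.09% of 7278 genes, and the median log2 ratio was 0.78. In Ter119 the highest Kupffer marker in these cells stood at 34.9% of its Kupffer level, and 31 of 33 members exceeded it, the others being Gpx1 (28.9%) and G6pdx (30.5%). The share of all genes above that marker was not computed. Stellate or fibroblast markers were also higher in these cells, at 4.06 per 10000 UMIs in saline and 11.3 in Ter119 (Dcn 155.5 and 549.4 CPM, Rgs5 64.0 and 216.6 CPM), and their part in the ratios was not tested. Gclm was at 76.4 CPM in saline against 339.4 CPM in Ter119 (ratio 4.44, interval 3.73 to 5.31), and Mgst1 at 61.3 and 235.1 CPM, a ratio of 3.83 (3.14 to 4.70). Nqo1, near absent from Kupffer cells, was at 6.22 CPM (14 UMIs) and 34.3 CPM (52 UMIs), a ratio of 5.52 (3.01 to 10.8). The carriers and pentose phosphate enzymes Txn1 (431 and 1029 CPM, ratio 2.39), Txnrd1 (85.8 and 194.1 CPM, ratio 2.26), Taldo1 (154.6 and 374.4 CPM, ratio 2.42), Tkt (84.0 and 181.6 CPM, ratio 2.16) and G6pdx (13.3 and 33.02 CPM, ratio 2.48) passed 2-fold here. In Kupffer cells they were under 2-fold as reported above, but Txn1 and Txnrd1 passed it there under 3 of the 12 alternatives and G6pdx under 1, and differences between the types were not tested. Gpx1 was at 499 and 566.6 CPM, a ratio of 1.14 (1.04 to 1.24).

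Of 29 members in monocytes, 7 passed 2-fold upward and 0 downward, beside 2.63% and 3.39% of 6130 genes. Gclm was at 30.4 and 173.6 CPM, a ratio of 5.71 (4.18 to 7.91), Prdx1 at 681.5 and 1967 CPM, a ratio of 2.89 (2.68 to 3.11), and Srxn1 at 5.07 CPM (9 UMIs) and 37.2 CPM (36 UMIs), a ratio of 7.34 (3.47 to 17.3). Mgst1, at 163.9 CPM, was higher in saline monocytes than in saline Kupffer cells, and reached 274.8 CPM in Ter119. Gpx1 was at 2548 and 2531 CPM, a ratio of 0.993 (0.945 to 1.04). Against the Kupffer level in Ter119, Gclm (45.5%), Gstm1 (54.6%) and Prdx1 (51.1%) lay below the highest Kupffer marker in these cells (60.6%), which was Csf1r, a receptor that monocytes make themselves, and above the median of the markers (18.6%).

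In neutrophils the members lay on both sides of equality. Of 27 members, 6 passed 2-fold upward and 5 downward, beside 15.9% and 27.1% of 5708 genes, a background so wide that the members' counts are not set apart from it. Slc7a11 was at 327.1 CPM in saline against 40.2 CPM in Ter119 (ratio 0.123, interval 0.0771 to 0.188). Gsr was at 1501 and 569.2 CPM, Txn1 at 2736 and 1333 CPM, Taldo1 at 1979 and 760.6 CPM and Osgin1 at 81.2 and 12.9 CPM. Tkt ran the other way, at 186 and 733.2 CPM, as did Prdx1 at 245.8 and 1130 CPM. Stage markers of neutrophils differed between the samples. The granule genes Ngp, Camp and Ltf, made by immature cells, were at 89.8, 124 and 17.1 CPM in saline and 26958, 32480 and 6969 CPM in Ter119, while Cxcr2 and Csf3r of mature cells were at 1575 and 2785 CPM in saline and 156 and 180.1 CPM in Ter119. Stage and treatment cannot be told apart here.

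Over 7 types (Kupffer, endothelial, monocyte, dendritic, neutrophil, T or NK, and B cells), 12 members had a ratio above 1 in each: Gclm, Gclc, Gss, Mgst1, Gstm1, Esd, Txnrd1, Prdx1, Prdx2, Prdx4, Prdx6 and Cat. For 3 of them, Gclm (2.44 to 5.71), Gstm1 (2.39 to 21.3) and Prdx1 (2.71 to 5.22), the interval lay above 1 in every type. The share of all genes that meet either rule was not computed, so these counts describe the members only. The Gstm1 ratio of 21.3 was that of B cells, with 68 saline and 40 Ter119 cells. Kupffer markers stood there at a median of 7.2% and 14.8% of their Kupffer level, and their part in the ratios was not tested. In T or NK cells of Ter119, Gclm (28.6% of the Kupffer level), Gstm1 (22.5%) and Mgst1 (18.9%) did not exceed the highest Kupffer marker (28.7%), which rests on 2 UMIs. Against markers with at least 20 UMIs (highest 21.1%), Gclm and Gstm1 exceeded every one and Mgst1 did not. Prdx1, at 302.2 CPM in saline against 1578 CPM in Ter119 T or NK cells, stood at 41.0% of its Kupffer level and exceeded every marker. In dendritic cells of Ter119, Gclm (25.2%), Gstm1 (14.7%) and Prdx1 (31.9%) did not exceed the highest marker (45.0%, from 4 UMIs). Against markers with at least 20 UMIs (highest 18.6%) Gclm and Prdx1 exceeded every one and Gstm1 did not, and the count of members that did so in dendritic cells was 30 of 33 in place of 17. The share of all genes was not computed for either count. In neutrophils of Ter119, Gstm1 (27.0%) lay just under the highest marker (27.6%) and above every marker with at least 20 UMIs.

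**Figure D4:**
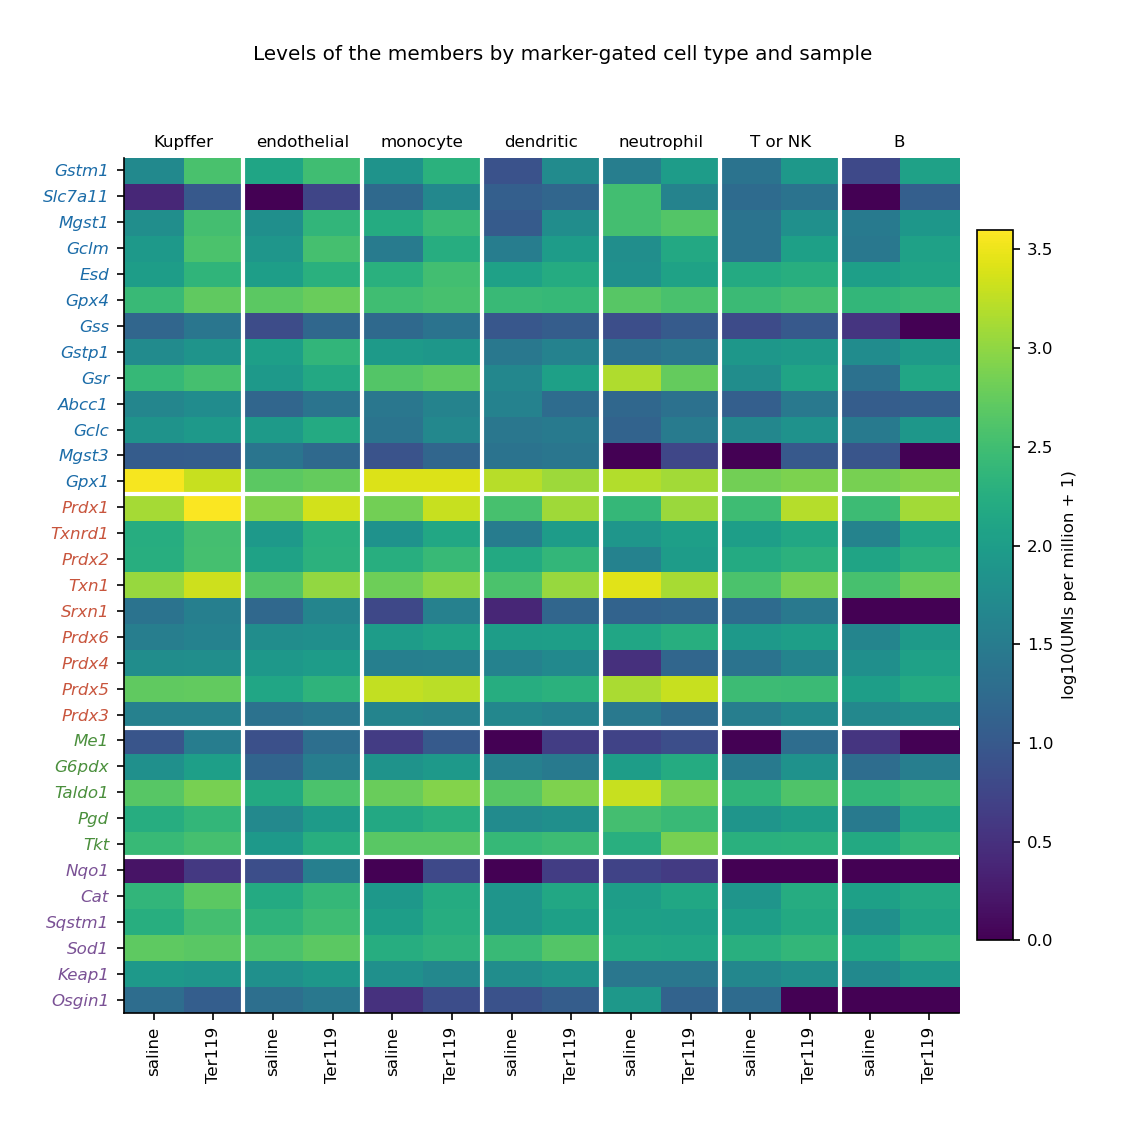
Levels of the members as log10(CPM + 1), with saline and Ter119 side by side for each marker-gated cell type; white lines separate types and branches, and colours are to be compared along a row only. Gclm, Gstm1 and Prdx1 are brighter in Ter119 in all 7 types, and Slc7a11 is brightest in saline neutrophils.

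**Figure D5:**
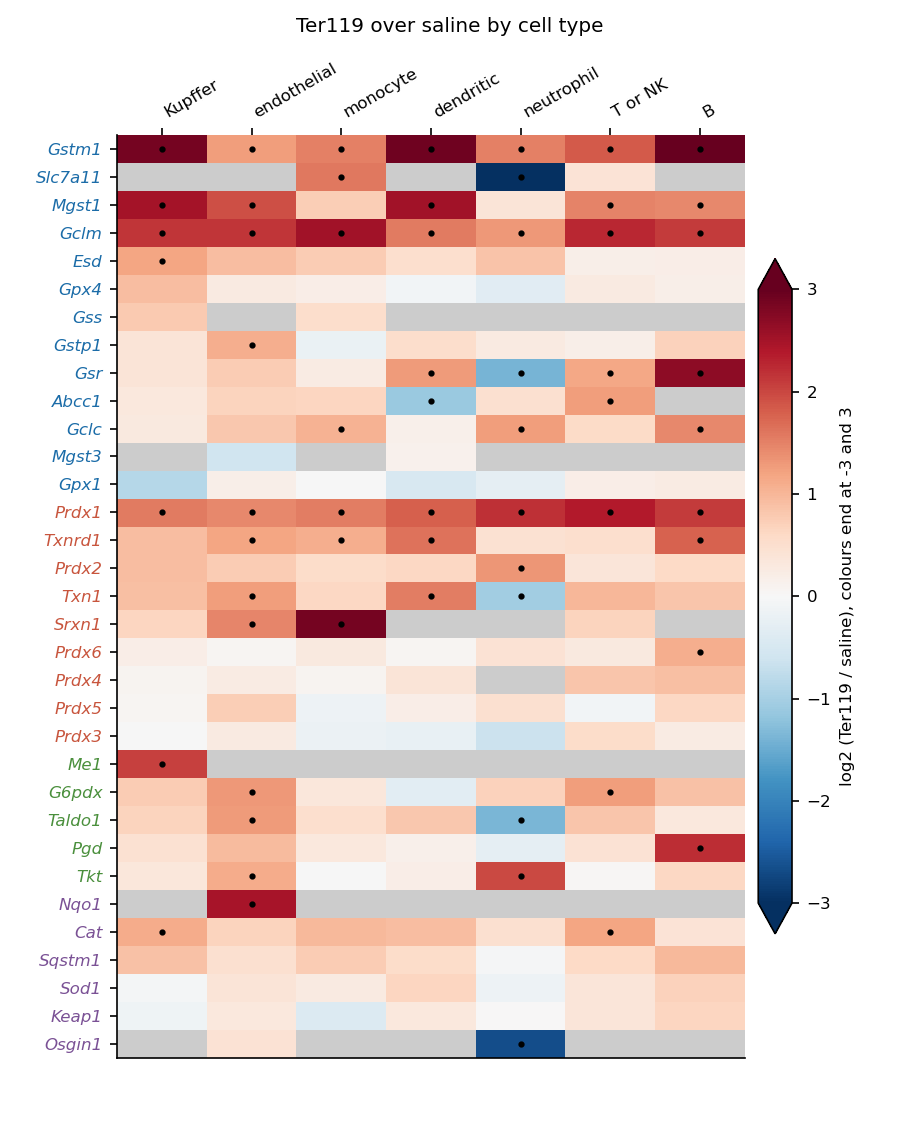
Ratio of Ter119 over saline (log2) for each member and type, red higher and blue lower in Ter119, with a dot where the difference is at least 2-fold and grey where the gene is under 20 CPM in both samples. Gclm, Gstm1 and Prdx1 carry a dot in all 7 types; most dots on blue lie in neutrophils.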

How the data were processed

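The authors deposited raw UMI counts, as 1 matrix per sample. Per the file headers these were produced with Cell Ranger 6.0.2. The submitters' processing notes name the build GRCm38.p6 and the tools DESeq2 1.26.0, Seurat 3.2.3, Scanpy 1.7.0 and Cell Ranger 4.0.0. The sources used here do not give how hashtags separated the pooled mice, and 133 barcode sequences occur in both matrices.

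From these counts, barcodes were kept that had 1000 UMIs or more, 500 genes or more and a mitochondrial share of 15% or less. A cell entered a type when its marker UMIs per 10000 and its number of detected markers passed 1 gate alone (Kupffer: 100 and 4 markers; neutrophil: 100 and 2; monocyte: 40 and 3; endothelial: 40 and 4; dendritic, T or NK, and B: 10 and 2; erythroid: 1000 and 4). Cells in several gates, 505 in saline and 1513 in Ter119, were left out, as were Kupffer cells that also passed the erythroid gate, 4 in saline and 2421 in Ter119. No doublet caller was run. Thresholds were set after seeing the cells.

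Counts were summed per type and sample and scaled to CPM. Ratios have exact conditional binomial 95% intervals, shares have exact Clopper-Pearson intervals, and counts of 0 were replaced by 3 per library. A gene was counted as higher or lower when it reached 20 CPM in either sample and differed by 2-fold or more. For the Hmox1 quartiles, CPM were computed without Hmox1. The script was tested on simulated data. Alternatives covered scaling (TMM factors from edgeR 4.0.16, median-of-ratios factors, a total without abundant gene classes), filters, gates, clusters (leidenalg 0.10.2, scanpy 1.11.5), shared barcodes, hemoglobin and thinning. R 4.3.3 and python 3.11.15 were used, the latter with pandas 2.3.3, scipy 1.17.1 and numpy 2.4.6. Gene positions came from GENCODE vM21.

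The members and the gene lists were chosen with earlier results of these data known. Named are all members, Hmox1, Nfe2l2, Bach1 and up to 3 genes of each list with the largest ratios in either direction.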

Additional observations from a re-analysis of the deposited data

Results flagged for a closer look

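For 8 of 33 members the counting interval of the ratio of Ter119 over saline lay above 1 in at least 1 cell type and below 1 in another (Gpx1, Gpx4, Gsr, Prdx5, Slc7a11, Sod1, Taldo1 and Txn1). Slc7a11, Gsr and Taldo1 are given here because their whole interval was 2-fold or more above saline in 1 type and 2-fold or more below it in another. In each of these the lower ratio was that of neutrophils, whose stages differed between the mice. Slc7a11 had a ratio of 5.91 in Kupffer-gated cells and 0.123 in neutrophils, and 3.47 in endothelial cells, where saline had 0 UMIs and the floor of 3 counts was used with 7 UMIs in Ter119. Gsr had a ratio of 6.40 in B cells, from 8 and 12 UMIs, and 0.379 in neutrophils. Taldo1 had a ratio of 2.42 in endothelial cells and 0.384 in neutrophils. Txn1, with 2.39 in endothelial cells and 0.487 in neutrophils (interval 0.446 to 0.532), lay just outside this limit. Each type has 1 mouse per group, and these differences between types were not tested. The share of all genes with intervals on both sides of 1 was not computed.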

How the results depend on the processing

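Other scalings moved the Kupffer values upward. With TMM factors 13 members were at least 2-fold higher and the median log2 ratio was 0.90 for the members, 1.02 for the glutathione, 0.86 for the thioredoxin and 0.90 for the NADPH branch. With median-of-ratios factors the values were 14, 0.92, 1.04, 0.88 and 0.92. With a total that leaves out hemoglobin, ferritin, ribosomal protein and mitochondrially encoded genes, 12 members were at least 2-fold higher, and the medians were 0.80 for the members, 0.76 for the thioredoxin and 0.80 for the NADPH branch. At most 5% mitochondrial UMIs gave 0.76 for the thioredoxin and 0.74 for the NADPH branch. The stricter gate gave 0.64 for the members and 0.64 for the NADPH branch, cells with at most 1% hemoglobin gave 0.70 and thinned cells 0.63 for the NADPH branch. With Kupffer cells rich in hemoglobin, a setting chosen after seeing the data, the medians were 0.56 for the members, 0.48 for the thioredoxin and 0.56 for the NADPH branch. The median of the members over the Hmox1 quartiles of Ter119 was 0.23 there, and that of all genes was not computed. With background set only by Kupffer markers with at least 20 UMIs, also chosen after seeing the data, the members above every marker went from 17 to 30 in Ter119 dendritic cells, from 28 to 30 in T or NK cells and from 29 to 33 in neutrophils. The share of all genes above the markers was not computed. The median log2 ratio of all genes in Kupffer cells moved as well. It was -0.21 in the main setting, 0.01 with TMM factors and 0.04 with median-of-ratios factors. With the total that leaves out abundant gene classes it was -0.08, and 4.63% of all genes were at least 2-fold higher. With Kupffer cells rich in hemoglobin it was -0.32. The cause of the shifts in the Kupffer values was not tested. Under all 12 alternatives, 27 of 33 members kept their direction and 8 stayed at least 2-fold higher: Gclm, Slc7a11, Mgst1, Gstm1, Esd, Prdx1, Me1 and Nqo1. Mgst3, Prdx3, Prdx4, Prdx5, Sod1 and Keap1 changed direction under at least 1 of them. One mouse per group limits every value. Depth limits Slc7a11 and Nqo1 in Kupffer cells and most members in dendritic, T or NK and B cells.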

Other observations

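The 3 Ter119 clusters named Kupffer from their markers had nearly equal Hmox1, and some members differed between them. Cluster 2 (2209 cells), led by hemoglobin and other erythroid genes, was closest to Kupffer but was left unnamed. Hmox1 was at 6614, 6714 and 6620 CPM in cluster 1 (3308 cells), cluster 11 (659 cells) and cluster 8 (808 cells), and median depth was 3630, 4583 and 1308 UMIs. Between clusters 11 and 1, 7 of 33 members were over 1.5-fold higher in cluster 11 (Esd, Gstm1, Gstp1, Nqo1, Prdx1, Slc7a11 and Srxn1), 0 were that much lower and 26 lay within 1.5-fold, among them Txnrd1 at 367.8 and 323 CPM, Cat at 568 and 498.2 CPM and Gpx1 at 1989 and 1944 CPM. The share of all genes past 1.5-fold between these clusters was not computed. Members also differed between clusters 8 and 1, in both directions, and were not counted there. Gpx4 was at 812.5 and 495.5 CPM in clusters 8 and 1, Txn1 at 3042 and 1997 CPM and Abcc1 at 23.0 and 54.8 CPM. Nqo1 rests on 12 UMIs in cluster 11 and 26 in cluster 1. Cluster 11, led by Mmp12 and Gpnmb, had Prdx1 at 6123 CPM, against 3427 CPM in cluster 1 and 5340 CPM in cluster 8. Gstm1 was at 595, 323.4 and 467.6 CPM in clusters 11, 1 and 8, and Esd at 413.8, 182.2 and 342.4 CPM. Slc7a11 was at 40.1 CPM in cluster 11 and at 2.56 and 5.11 CPM in clusters 1 and 8. Srxn1 was at 69.8, 30.4 and 41.7 CPM in the same order. The clusters were made from these cells' own counts, so the values describe them and were not tested. Saline Kupffer clusters had Prdx1 between 1246 and 1732 CPM and Gstm1 between 42.0 and 83.7 CPM.

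The 2421 Ter119 cells that passed both the Kupffer and the erythroid gate, left out of the comparisons, had Gclm at 304.7 CPM, Gstm1 at 269.6 CPM, Mgst1 at 251.5 CPM, Prdx1 at 2667 CPM and Hmox1 at 5070 CPM. Hemoglobin and other erythroid markers made up 2301 of 10000 UMIs in these cells. Erythroid-gated cells of Ter119 had Gclm at 221 CPM, Prdx1 at 1785 CPM and Hmox1 at 1885 CPM.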
